A study of Homo sapiens with 4 samples.

Results

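NADPH supply was examined through 9 genes of the pentose phosphate pathway and of related NADPH metabolism in Nalm-6, a leukemia line of human B cell precursors. The genes were PGLS, PGD, TALDO1, TKT, RPIA, RPE, ME1, IDH1 and NQO1. They were taken as all probes whose RefSeq transcript maps to 1 of these symbols, which gave 14 probes of the 41000 on the array and 9 of the 18203 genes that could be named. The study asked how the INO80 chromatin remodeling complex, of which actin-related proteins Arp5 and Arp8 are subunits, acts on gene expression under oxidative stress. It compared 4 cultures with 1 array each. Wild-type (WT) cells were the first group. Arp5 KO cells came from 1 established line, in which both ACTR5 alleles were disrupted by targeting vectors. The cells labelled Arp8 KO came from an earlier study by the same group, which described a conditional knockout of this gene as lethal. The last group was labelled Arp8 over-expression (Arp8 OE), and how it was made is not given in the sources used here. Titles and protocol gave 20 uM heme for 12 hours to all 4 cultures. The treatment field, however, gave no heme for both knockouts, and the source field gave no heme for Arp5 KO but heme for Arp8 KO. Wild-type and Arp8 OE had heme in every label. In every comparison with a knockout, genotype and treatment therefore cannot be told apart. Since each group had 1 array, no difference was checked against a replicate, and no test between groups was made.

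The array that carries the Arp8 OE label did not have more ACTR8 signal than wild-type (log2 differences of 0.02 and -0.01 on the 2 ACTR8 probes), so the label is used only as a name. ACTR5 in Arp5 KO was 19.3-fold lower, and the 2 ACTR8 probes were 1.44- and 1.60-fold lower in Arp8 KO (log2 differences of -0.53 and -0.68). Most of the ACTR8 signal thus remained on the array labelled Arp8 KO. Where these probes lie relative to the disrupted part of the gene is not known here, so they check that label only weakly. All 10 B precursor markers of a fixed list were well above background on every array, with a median log2 level from 3.63 to 3.82. Among them DNTT was higher than wild-type in Arp5 KO (0.84), Arp8 OE (1.02) and Arp8 KO (1.78), and VPREB1 was lower in Arp8 KO (-1.26). RAG1 was higher on both of its probes in Arp8 KO (1.97- and 1.72-fold), Arp8 OE (1.94- and 2.15-fold) and Arp5 KO (1.29- and 1.30-fold). CD79A was lower in Arp5 KO (-0.65), Arp8 OE (-0.20) and Arp8 KO (-0.86). Of other cell types, at most 1 of 3 erythroid markers was well above background on any array. T cell markers reached this level for 1 of 4 genes, myeloid markers for 1 to 2 of 4, and epithelial markers for 2 of 3 (KRT8 and KRT18, while EPCAM was on none). The part of these markers in the results was not tested. Levels below are log2 of the Agilent processed signal over the 75th percentile of the array, so that 0 is the level that 75% of spots stay under. Probes differ in how strongly they bind, so levels are compared between arrays and never between probes. The spread of spots of the same probe within an array gave a technical SD of 0.08 for a log2 difference between 2 arrays (177 probes printed 10 times). Each of the 14 probes had 1 spot, and 0.16, which is 2 times that SD, serves below as the size under which 2 arrays are not told apart. It covers spots only, not labelling, hybridization or cultures, so a difference over it is not thereby shown between cultures. In a bulk sample, fewer cells of a type and less RNA per cell cannot be told apart.

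NADPH is the electron donor for reductive biosynthesis and for the regeneration of reduced glutathione and thioredoxin, and it also feeds heme oxygenase through cytochrome P450 reductase. The pentose phosphate pathway makes it in an oxidative branch, while a reversible non-oxidative branch interconverts sugar phosphates between ribose and glycolytic intermediates. Several of its genes, with ME1 and NQO1, are known targets of the transcription factor NRF2, which binds antioxidant response elements at sites where the heme-sensitive repressor BACH1 can also bind.

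Because that element is short, promoter letters are shown first. Promoters (250 bases before to 50 after a start) were taken from RefSeq on GRCh38.p14, another build than the hg19 named by the array files. All 9 genes matched, with 10 starts, since IDH1 had 2. The core was searched on both strands as TGACNNNGC and as TGAGNNNGC, and a promoter may hold both. The former was found in 13.3% of 35116 RefSeq promoters of this length, the latter in 18.3%, and either in 29.1%. Among the 9 genes, 5 had a match: PGD, RPE, ME1, IDH1 at its second listed start, and NQO1. Counted by start, as those shares are, 5 of the 10 starts had a match. PGLS, TALDO1, TKT and RPIA had none in this window. The sequences with matches upstream of the start are printed with the matched letters in capitals, 5′ to 3′ on the strand of the gene, to set beside the values that follow.
PGD, 201 bases before the start, match on the opposite strand, chr1:10398843-10398891 (plus strand): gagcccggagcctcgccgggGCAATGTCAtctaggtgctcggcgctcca
RPE, 151 bases before the start, chr2:210002467-210002515 (plus strand): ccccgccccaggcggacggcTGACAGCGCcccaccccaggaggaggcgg
ME1, 137 bases before the start, chr6:83431160-83431208 (minus strand): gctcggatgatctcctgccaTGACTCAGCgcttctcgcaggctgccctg
IDH1 second start, 143 bases before the start, chr2:208255186-208255234 (minus strand): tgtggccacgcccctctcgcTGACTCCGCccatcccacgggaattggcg
IDH1 second start, 68 bases before the start, chr2:208255111-208255159 (minus strand): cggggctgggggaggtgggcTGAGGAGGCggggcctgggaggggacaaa
The whole upstream window is given for NQO1, the gene with the widest differences between the arrays. Its match lies 119 bases before the start on the opposite strand.
NQO1, chr16:69726561-69726810 (minus strand): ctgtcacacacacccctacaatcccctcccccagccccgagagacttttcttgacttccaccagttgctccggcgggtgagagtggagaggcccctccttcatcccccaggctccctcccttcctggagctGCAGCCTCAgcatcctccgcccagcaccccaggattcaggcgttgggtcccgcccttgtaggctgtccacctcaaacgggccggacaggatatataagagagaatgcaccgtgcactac
ME1 had a second match 11 bases after its start. A match of these letters is a description of the sequence. The element best known at NQO1 lies farther upstream than this window.

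Across the 14 probes, 12 probes of 8 genes were well above background on all 4 arrays, and both ME1 probes were on none. In the comparison of Arp8 KO with wild-type, 1 of the 12 probes was lower by more than 2-fold, against 7.71% of 24578 tested probes in either direction. At 1.5-fold, 5 probes were lower and 1 was higher, against 21.3% of all tested probes. The median log2 difference of the 12 probes was -0.48, against 0.03 over all tested probes, and 10 of the 12 (83.3%) lay under 0, against 47.3% of all. In Arp5 KO against wild-type, none of the 12 passed 2-fold (3.7% of 24285 tested probes did) and 1 was lower past 1.5-fold (8.84% of all in either direction), with a median of -0.08 against 0.00. In Arp8 OE against wild-type, 1 was lower past 2-fold (5.11% of 24177) and 2 were lower past 1.5-fold (13.6%), with a median of -0.31 against 0.00. These 3 comparisons share the WT array, so a deviation of that array enters all of them. The 12 probes belong to 8 genes, and 4 are TALDO1 probes, so they are not 12 separate measurements. With 1 value per gene the median in Arp8 KO against wild-type was -0.29.

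**Figure D1:**
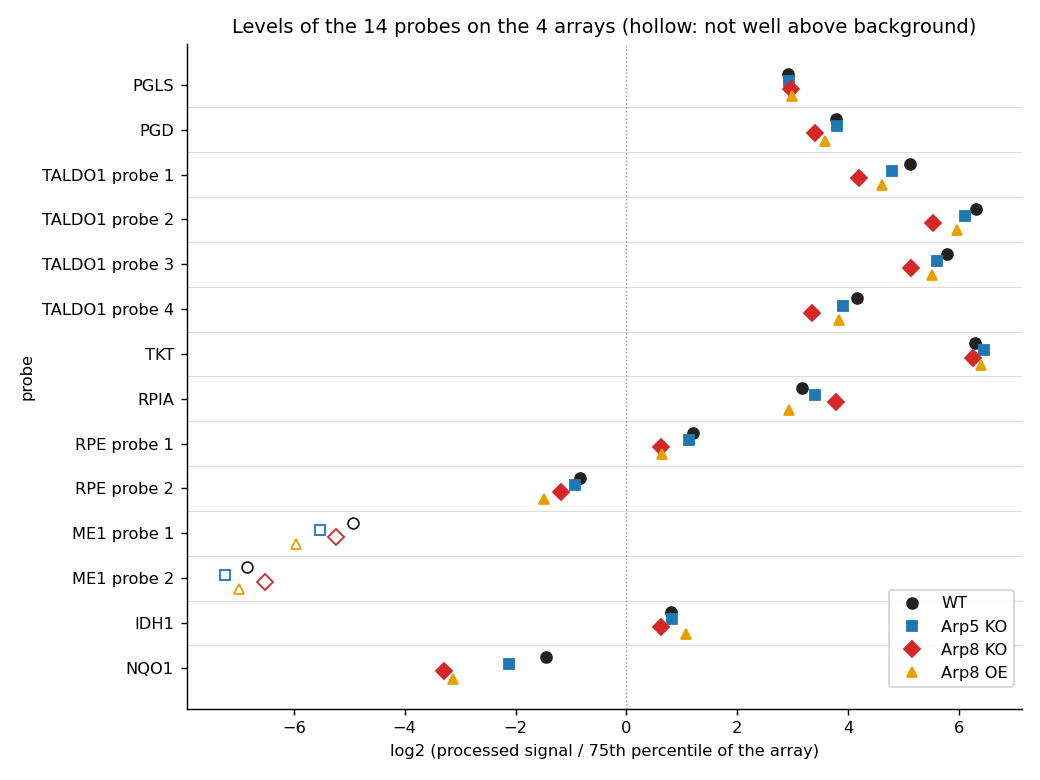
Levels of the 14 probes on the 4 arrays, as log2 of the processed signal over the 75th percentile of the array. Each point is 1 array (circle WT, square Arp5 KO, diamond Arp8 KO, triangle Arp8 OE), hollow where the probe was not well above background, and the NQO1 points run from -1.45 in WT to -3.30 in Arp8 KO while the PGLS points lie within 0.06 of each other. TALDO1 probes 1 to 4 and RPE and ME1 probes 1 and 2 are in the order of the text.

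The oxidative branch was represented by PGLS and PGD. PGLS, the lactonase of this branch, had nearly the same level on every array: 2.92 in wild-type, 2.93 in Arp5 KO, 2.98 in Arp8 OE and 2.97 in Arp8 KO. The range of 0.06 is under the technical SD, and none of the 4 arrays could be told from another on this probe. PGD encodes 6-phosphogluconate dehydrogenase, the second NADPH-producing step. Its level was 3.79 in wild-type, 3.80 in Arp5 KO, 3.59 in Arp8 OE and 3.40 in Arp8 KO. The order of the levels was thus wild-type and Arp5 KO together, then Arp8 OE, then Arp8 KO. PGD was 1.31-fold lower in Arp8 KO than in wild-type, a log2 difference of -0.39, and 18.4% of tested probes lay at least as far below 0. In Arp8 OE it was 1.15-fold lower than in wild-type (-0.20). Arp5 KO differed from wild-type by 0.01, within the technical spread. Normexp background correction brought the difference in Arp8 KO to -0.50.

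TALDO1, which encodes transaldolase, the enzyme that moves a dihydroxyacetone unit between sugar phosphates, had 4 probes, and they gave the same order of arrays. Its levels for wild-type, Arp5 KO, Arp8 KO, then Arp8 OE, in that order, were 5.11, 4.80, 4.19 and 4.61 on probe A_23_P44993. On A_24_P81740 they were 6.31, 6.11, 5.53 and 5.96 in the same order. Wild-type was highest and Arp8 KO lowest on each probe. The levels of A_32_P18258 were 5.78, 5.60, 5.14 and 5.51. Those of A_32_P28872 were 4.16, 3.91, 3.35 and 3.83. Arp5 KO and Arp8 OE were neighbours in this order and lay within 2 technical SDs of each other on all probes but A_23_P44993. TALDO1 was 1.57- to 1.89-fold lower in Arp8 KO than in wild-type, with log2 differences from -0.92 to -0.65 and a mean of -0.79. For scale, the differences of the 2 probes of a gene lay a median of 0.18 apart over 3044 genes with 2 probes in this comparison. In Arp5 KO the differences from wild-type ran from -0.31 to -0.18 with a mean of -0.24. In Arp8 OE they ran from -0.50 to -0.28 with a mean of -0.36. All 12 values were larger than 2 technical SDs. Among tested probes, between 5.17% and 9.71% lay as far below 0 as the TALDO1 probes in Arp8 KO against wild-type. Whether near-identical copies of TALDO1 elsewhere in the genome add to these 4 signals was not tested.

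TKT encodes transketolase, which moves a glycolaldehyde unit between sugar phosphates of the same branch. Its level was 6.29 in wild-type, 6.46 in Arp5 KO, 6.40 in Arp8 OE and 6.26 in Arp8 KO, a range of 0.20. Neighbours in the order of these levels differed by less than 0.16. TKT was 1.12-fold higher in Arp5 KO than in wild-type (log2 difference of 0.17). For Arp8 KO and Arp8 OE the differences were -0.03 and 0.11. The 2 enzymes of the non-oxidative branch that transfer carbon units thus had unlike values in Arp8 KO, -0.03 for TKT and -0.79 as the mean of the TALDO1 probes.

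RPIA and RPE encode the isomerase and the epimerase that convert ribulose 5-phosphate into ribose 5-phosphate and xylulose 5-phosphate. RPIA, with 1 probe, was the only one of the 12 probes that was past 1.5-fold higher in Arp8 KO than in wild-type. Its level was 3.16 in wild-type, 3.40 in Arp5 KO, 2.93 in Arp8 OE and 3.79 in Arp8 KO. From the highest down, the order was Arp8 KO, Arp5 KO, wild-type, Arp8 OE, and all neighbours in it differed by more than 2 technical SDs. RPIA was 1.55-fold higher in Arp8 KO than in wild-type, a log2 difference of 0.63, and 8.69% of tested probes were at least as far above 0. It was 1.18-fold higher in Arp5 KO (0.24), whereas Arp8 OE was 1.17-fold below wild-type (-0.23). RPE, with 2 probes, was lower in both Arp8 cultures. The levels in wild-type, Arp5 KO, Arp8 KO, then Arp8 OE were 1.20, 1.13, 0.63 and 0.64 on probe A_23_P165301. On A_32_P220938 they were -0.83, -0.92, -1.18 and -1.48. Wild-type and Arp5 KO were not told apart on either probe (-0.07 and -0.10). Relative to wild-type, RPE in Arp8 KO was 1.48- and 1.28-fold lower (-0.56 and -0.36), and 1.47- and 1.58-fold lower in Arp8 OE (-0.56 and -0.66). The first probe gave the same level in both Arp8 cultures, while on the other Arp8 KO was 0.30 above Arp8 OE, and 1 spot beside that probe was bright on the Arp8 KO array alone. An intronless near-copy of RPE exists in the human genome, and its part in these signals was not tested.

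ME1 and IDH1 encode the cytosolic malic enzyme and isocitrate dehydrogenase, which make NADPH outside the pentose phosphate pathway. Neither ME1 probe was well above background on any array, with processed signals between 10.4 and 23.9 on probe A_23_P422026 and between 4.86 and 7.16 on A_23_P8196, so no fold is given. IDH1 was measured on each array, at 0.81 in wild-type, 0.82 in Arp5 KO, 1.08 in Arp8 OE and 0.62 in Arp8 KO. Wild-type and Arp5 KO were not told apart (0.01). IDH1 was 1.14-fold lower in Arp8 KO than in wild-type (-0.19) and 1.21-fold higher in Arp8 OE (0.28). Under normexp background correction the former became -0.10, under 2 technical SDs.

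NQO1, which encodes the quinone reductase that uses NADPH or NADH to reduce quinones by a pair of electrons at once, had the widest range of the 12 probes, 1.86 on the log2 scale. Its level was -1.45 in wild-type, -2.11 in Arp5 KO, -3.13 in Arp8 OE and -3.30 in Arp8 KO, and the processed signals were 270, 171, 73.9 and 66.4 in that order. Wild-type was highest, Arp5 KO lay between, and the 2 Arp8 cultures were lowest. Probes in this range of levels had a larger technical SD of a difference, 0.12 (32 probes), and the 2 Arp8 cultures, 0.17 apart, lay within 2 such SDs. In Arp5 KO, NQO1 was 1.59-fold below wild-type, a log2 difference of -0.67, and 3.85% of tested probes lay at least as far below 0. In Arp8 KO it was 3.62-fold lower (-1.86), with 1.27% of tested probes as far. In Arp8 OE it was 3.22-fold lower (-1.68), with 0.86% as far. It was the probe behind each count of 1 past 2-fold given for the 12 probes. Of the alternatives, normexp moved these values most, to -0.50 in Arp5 KO, -1.06 in Arp8 OE and -1.14 in Arp8 KO. As used here it corrects the background and also adds an offset of 50 to each signal, beside NQO1 signals of 66.4 to 270. The parts of the correction and of the offset were not told apart. Over all alternatives NQO1 stayed past 2-fold against wild-type in both Arp8 cultures. None of the 6 spots beside the NQO1 spot was bright on 1 array alone. HMOX1, the heme oxygenase gene that the study is about, was lower than wild-type on the same 3 arrays, by log2 differences of -2.98 in Arp5 KO, -2.05 in Arp8 OE and -2.91 in Arp8 KO. For NQO1 Arp5 KO was thus nearer to wild-type than the Arp8 cultures were, while for HMOX1 Arp5 KO was as far from wild-type as Arp8 KO.

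**Figure D2:**
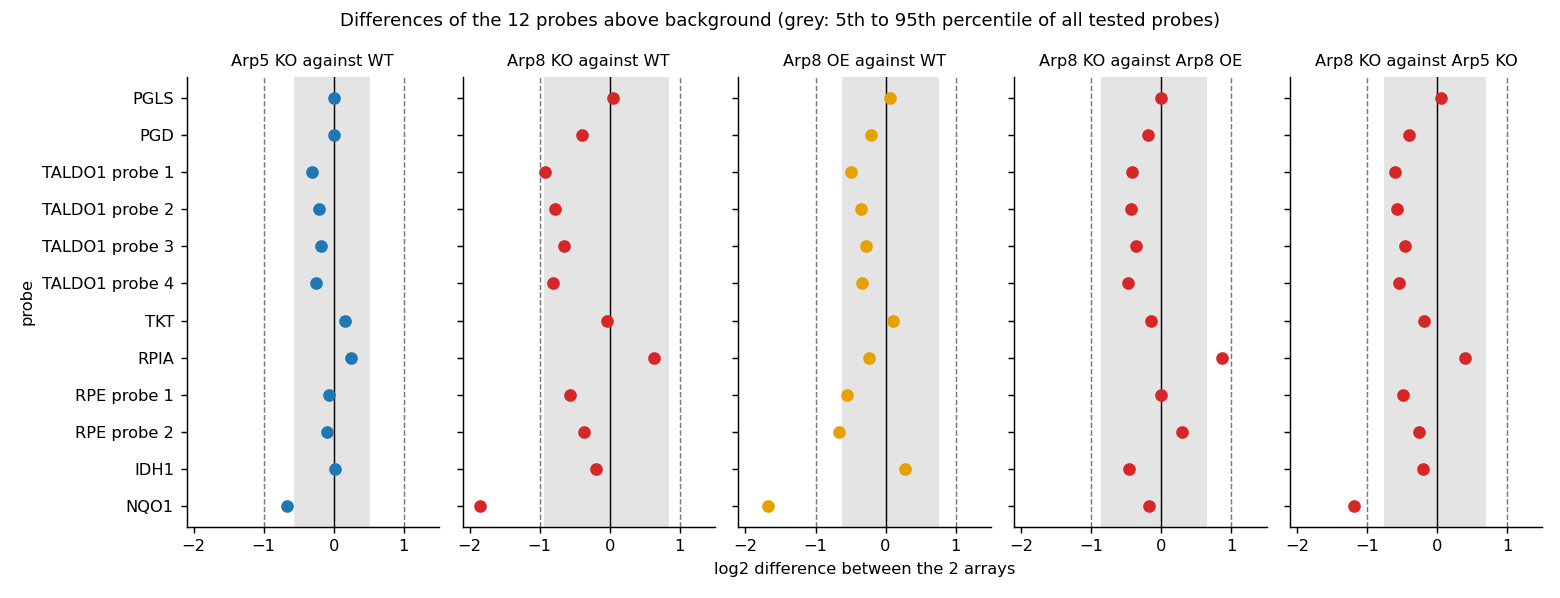
Log2 differences of the 12 probes that were well above background, in the 5 comparisons of 2 arrays each. The grey band covers the 5th to 95th percentile of all tested probes, dashed lines mark 2-fold, and NQO1 lies outside the band in each panel but Arp8 KO against Arp8 OE, where RPIA (0.86) does.

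The comparison of the knockout of Arp8 with the culture labelled as its over-expression does not use the WT array. In it, none of the 12 probes passed 2-fold (5.43% of 24204 tested probes did), and RPIA alone passed 1.5-fold (16% of all). RPIA was 1.82-fold higher in Arp8 KO, a log2 difference of 0.86, and 2.45% of tested probes lay as far above 0. IDH1 was 1.38-fold lower in Arp8 KO than in Arp8 OE (-0.46). The 4 TALDO1 probes were lower in Arp8 KO by differences from -0.48 to -0.37, with a mean of -0.43. PGD (-0.19) and NQO1 (-0.17) lay just over 0.16 below 0. With the larger technical SD of 0.12 at the levels of NQO1, its 2 values were not told apart. PGLS (0.00), the first RPE probe (-0.01) and TKT (-0.14) were within 0.16 of 0. The median of the 12 probes was -0.18, against 0.02 over all tested probes. Of the 12, 10 were under 0 (47.9% of all tested probes were), and these include the PGLS, RPE and TKT probes within 0.16.

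Arp8 KO and Arp5 KO were also set side by side, since the study removed either subunit of the same complex. In Arp8 KO against Arp5 KO, NQO1 was lower by 2.28-fold, a log2 difference of -1.19, as the only one of the 12 probes past 2-fold, against 5.71% of 24440 tested probes. At 1.5-fold 2 probes were lower, NQO1 and the TALDO1 probe A_23_P44993, against 14.7% of all. Under normexp the NQO1 difference was -0.65 and no longer past 2-fold. TALDO1 was lower in Arp8 KO than in Arp5 KO by differences from -0.61 to -0.46, with a mean of -0.55. PGD was 1.32-fold lower (-0.40), IDH1 differed by -0.20 and TKT by -0.20. RPE differed by -0.50 and -0.26 on its probes, and RPIA was 1.31-fold higher (0.39). PGLS did not pass 0.16 (0.05). The median was -0.43, against 0.02 over all tested probes, and 10 of 12 were under 0 (46.9% of all). Since 1 culture stands for each knockout, culture and genotype cannot be told apart either.

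Other genes of NADPH supply and pentose metabolism were taken from a list of 17 genes, of which 14 had a tested probe, with 22 tested probes in all. Against wild-type, their median log2 difference was 0.11 for Arp5 KO, -0.19 for Arp8 OE and -0.01 for Arp8 KO. In Arp8 KO, 11 of the 22 probes were under 0, beside 10 of the 12 probes described above, of which 4 are TALDO1 probes. No probe of this list was past 2-fold in Arp5 KO or Arp8 OE, and 2 of 22 were higher in Arp8 KO, a share near the 7.71% of all tested probes past 2-fold in that comparison. The 2 were probes of H6PD, the hexose 6-phosphate dehydrogenase of the endoplasmic reticulum, and of TIGAR, a fructose bisphosphatase that favours flux into the pentose phosphate pathway. The H6PD probe A_24_P626850 had levels of -3.89, -3.78, -2.86 and -4.24 in wild-type, Arp5 KO, Arp8 KO, then Arp8 OE. It was 2.04-fold higher in Arp8 KO than in wild-type (1.03), whereas the other 2 H6PD probes differed by 0.10 and 0.33. The TIGAR probe A_24_P564462 had levels of -3.68, -3.28, -2.51 and -3.69 in the same order. It was 2.25-fold higher in Arp8 KO (1.17), and the other TIGAR probe, A_23_P128486, by a log2 difference of 0.42. Against Arp8 OE, the same probes were 2.60-fold (H6PD) and 2.27-fold (TIGAR) higher in Arp8 KO. Both genes were therefore past 2-fold on 1 of their probes only.

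Further lists held other reductases, not all of which use NADPH, and genes listed as NADPH users. Of the quinone and carbonyl reductases listed beside NQO1, 7 genes had a tested probe (8 probes), and the median differences from wild-type were 0.04 for Arp5 KO, -0.22 for Arp8 OE and -0.48 for Arp8 KO. In Arp8 KO 7 of the 8 probes were under 0 (87.5%, against 47.3% of all tested probes). CBR1, a carbonyl reductase that uses NADPH, was the gene of this list past 2-fold on a probe that was measured on every array. Its level was -0.09 in wild-type, -1.16 in Arp5 KO, -1.38 in Arp8 OE and -1.57 in Arp8 KO. Against wild-type, CBR1 was lower by 2.10-fold for Arp5 KO (-1.07), 2.44-fold for Arp8 OE (-1.29) and 2.79-fold for Arp8 KO (-1.48). Wild-type was highest for CBR1 as for NQO1, but Arp5 KO lay nearer to the Arp8 cultures than to wild-type for CBR1 and nearer to wild-type for NQO1. Of the genes listed as NADPH users, 10 had a tested probe (17 probes). Their medians were 0.07 in Arp5 KO, 0.02 in Arp8 OE and -0.14 in Arp8 KO, where 11 of the 17 were under 0 (64.7%). These counts include CYB5R3, a reductase that mainly uses NADH, whose probes were higher in Arp8 KO by 0.39, 0.35 and 0.05. GSR, glutathione reductase, was lower past 2-fold in Arp8 KO on probe A_23_P146084. That probe had levels of 2.28, 1.87, 1.15 and 1.55 in wild-type, Arp5 KO, Arp8 KO, then Arp8 OE, and was 2.19-fold lower in Arp8 KO (-1.13). The other GSR probe gave -0.74 in Arp8 KO. In Arp5 KO the 2 GSR probes differed from wild-type by -0.41 and -0.36, and in Arp8 OE by -0.73 on both.

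**Figure D3:**
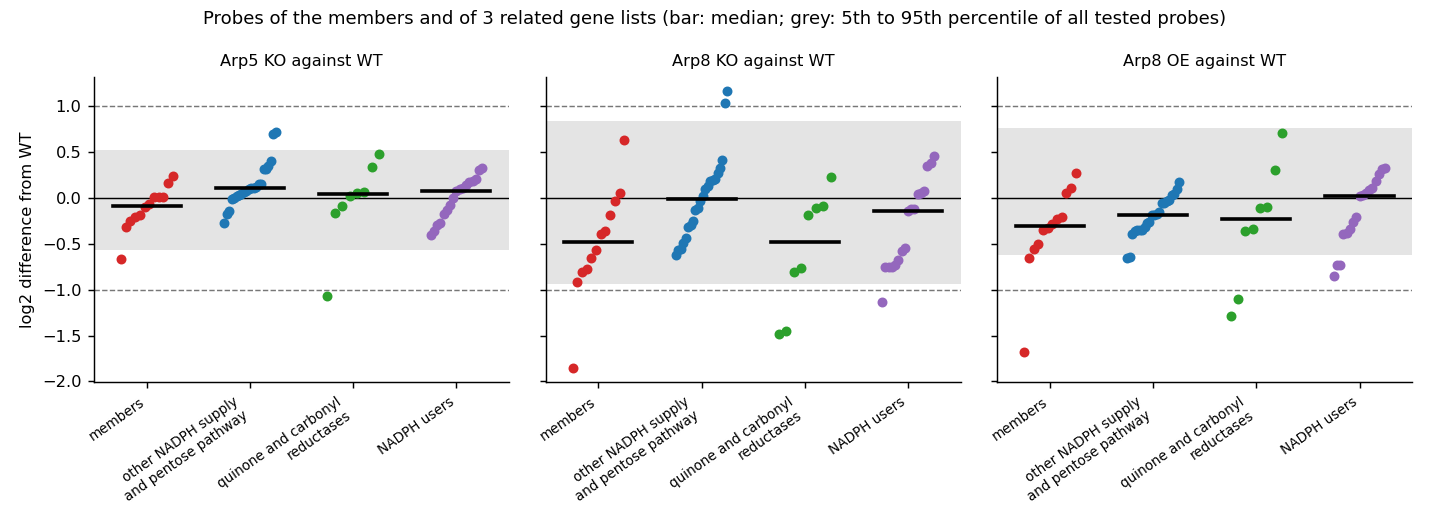
Log2 differences from WT for the tested probes of the genes described above (members) and of 3 related gene lists, 1 point per probe, with bars at the medians and a grey band from the 5th to the 95th percentile of all tested probes. In the Arp8 KO panel the bar of the members lies at -0.48 and that of the other NADPH supply and pentose pathway genes at -0.01. In the Arp8 OE panel these bars lie at -0.31 and -0.19. The AKR1C3 point of the reductases is a bound in the Arp8 KO and Arp8 OE panels, because that probe was not well above background there.

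The probes most like NQO1 over the 4 arrays were sought among 16575 other probes with a gene symbol that were well above background on all arrays, by the Euclidean distance of values centred on the mean of the probe. The nearest were IDE, which encodes insulin-degrading enzyme, at a distance of 0.23, GNAI1, a G protein alpha subunit, at 0.25, and SGO1, shugoshin of the centromere, at 0.27. Their values are given as levels for wild-type, Arp5 KO, Arp8 KO, then Arp8 OE. IDE had 1.39, 0.93, -0.17 and -0.06, GNAI1 had -2.69, -3.63, -4.64 and -4.31, and SGO1 had -0.51, -1.10, -2.01 and -2.01. Each had wild-type highest, Arp5 KO next and the 2 Arp8 cultures lowest, as NQO1 did. With 4 arrays many probes lie close to any pattern, and the likeness is a description.

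**Figure D4:**
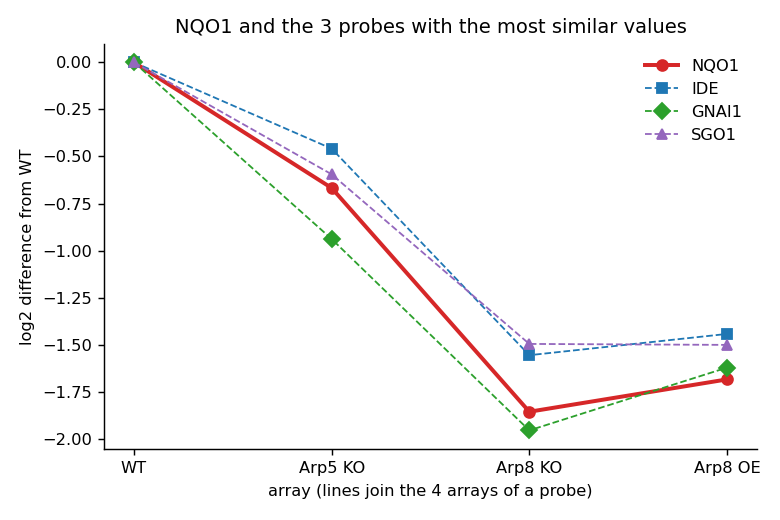
Log2 differences from WT on the 4 arrays for NQO1 and the 3 probes with the most similar values. Points are single arrays and lines join the arrays of a probe, and all 4 probes lie below -1.4 on both Arp8 arrays and between -0.94 and -0.46 on the Arp5 KO array.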

How the data were processed

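Total RNA of 4 Nalm-6 cultures, labelled with Cy3, was measured on 4 Agilent arrays of 1 colour. The deposited scanner files hold intensity, read out by the authors with version 10.10.1.1 of Agilent Feature Extraction, as their headers state. Its processed signal is background-subtracted within each array and is not scaled between arrays. The spot flags used (well above background, saturated, outlier) come from that software. The authors' deposited series matrix holds the same intensity multiplied by a constant for each array, between 1.99 and 2.29, and served as an alternative. Other details of the authors' processing are not given in the sources used here.

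From these, the log2 ratio of the processed signal to the 75th percentile of the 43376 spots other than controls was computed. That percentile lay between 647.4 and 739.6, and 55.8% to 57.4% of probes were well above background. Between 69 and 76 outlier spots per array were left out, and no spot was saturated. The log2 values of repeated spots were averaged. A probe entered a comparison if at least 50% of its spots were well above background on 1 of the 2 arrays. A value not well above background was raised to the lowest signal among the probes of that array that were, if it lay under it, and the fold is then written as "at least". Accessions were matched to symbols through RefSeq on GRCh38.p14, which named 27210 probes. The file headers name hg19.

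No test was made, since each group had 1 array, and precision is limited by how few arrays there were. The genes, lists and rules were chosen with earlier results of these data known. The genes named were the 9 members, ACTR5, ACTR8, HMOX1, genes of the 3 related lists past 2-fold on a probe well above background on both arrays compared, and the 3 probes nearest to the member with the widest range. Cell type markers with values, AKR1C3, CYB5R3, ME3, PRPS1, PRPS2 and TXNRD1 were named after their values were seen. AKR1C2 and POR had no probe by that symbol. Alternatives were median, quantile and cyclic loess scaling, normexp with an offset of 50 (on the median spot signal, since the files used hold no mean), the series matrix, a stricter filter, no filter, gene means, 1.5-fold, and leaving out probes beside a spot bright on 1 array alone. Python 3.11.15, numpy 2.4.6, pandas 2.3.3, R 4.3.3 and limma 3.58.1 were used. The calculation was tested on simulated data made from the WT array. Known changes were set only in probes with high signals, so their recovery at low signals such as those of NQO1 was not tested.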

Additional observations from a re-analysis of the deposited data

Results flagged for a closer look

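RPIA, the ribose 5-phosphate isomerase gene, differed from wild-type in opposite directions among the 3 other arrays. It was higher in Arp5 KO by a log2 difference of 0.24 and in Arp8 KO by 0.63, and lower in Arp8 OE by -0.23. IDH1, the cytosolic isocitrate dehydrogenase gene, was higher than wild-type in Arp8 OE by 0.28 and lower in Arp8 KO by -0.19. Each of these values is over 2 times the technical SD of 0.08, but with 1 array per group the difference between groups was not tested.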

How the results depend on the processing

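Of 575 values recomputed under the alternatives, 535 stayed within the technical SD (counts, within 1.5 times), and 40 moved farther. Of 480 recomputed differences of single probes, 26 moved by more than the technical SD: 12 under normexp, 11 with gene means and 3 under quantile normalization. The 47 differences over 2 times that SD kept their sign in all 376 recomputed values, but a part of these could not change. All 12 probes were well above background on every array, so neither the stricter filter nor no filter altered their differences. The series matrix is the same signal times a constant, which the scaling removes. Gene means alter only TALDO1 and RPE. The counts above of values that stayed include such values. Nearer to 0 signs did turn: 9 recomputed differences of single probes, which were at most 0.0145 in size as reported, and the Arp5 KO median with gene means given below. The largest move, 0.71, was that of NQO1 in Arp8 KO against wild-type under normexp, and over all alternatives this difference ran from -1.88 to -1.14. Normexp also brought the count of probes past 2-fold in Arp8 KO against Arp5 KO from 1 to 0. Normexp here includes an offset of 50 added to each signal, which draws ratios of low signals such as those of NQO1 toward 0. How much of these moves came from the offset and how much from the background correction was not tested. With no filter and no floor, which adds the 2 ME1 probes, the medians became -0.38 in Arp8 KO against wild-type and -0.33 in Arp8 KO against Arp5 KO, and the count in Arp8 OE against wild-type became 2. With 1 mean per gene, TALDO1 counts once, and the medians became 0.0082 for Arp5 KO, -0.22 for Arp8 OE and -0.29 for Arp8 KO against wild-type, and -0.29 in Arp8 KO against Arp5 KO. At 1.5-fold the counts against wild-type were 1 for Arp5 KO, 2 for Arp8 OE and 6 for Arp8 KO, and they were 1 in Arp8 KO against Arp8 OE and 2 in Arp8 KO against Arp5 KO. Without the RPE probe beside a bright spot, the median in Arp8 KO against wild-type was -0.56. Median scaling and cyclic loess moved no single-probe difference by more than the technical SD, and the series matrix and the stricter filter could not. Signal over background limits ME1, which has no measured level, and widens the error of NQO1.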

Other observations

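The genes in this section were chosen after their values were seen. AKR1C3, an aldo-keto reductase that uses NADPH, had 1 probe, which was well above background in wild-type and Arp5 KO only. Its levels in these were -3.71 and -3.65, a log2 difference of 0.06. Against wild-type it was lower by at least 2.74-fold for Arp8 KO and at least 2.15-fold for Arp8 OE. ME3, a mitochondrial malic enzyme, was higher in Arp5 KO than in wild-type on both of its probes, by 0.72 and 0.70. The same probes differed from wild-type by -0.11 and -0.13 in Arp8 KO, and by 0.04 and -0.15 in Arp8 OE.

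PRPS1 and PRPS2 encode phosphoribosyl pyrophosphate synthetases, which draw on the ribose 5-phosphate of the pentose phosphate pathway. The 2 PRPS1 probes differed from wild-type by -0.57 and -0.56 in Arp8 KO and by -0.27 and -0.31 in Arp8 OE, and by 0.03 and -0.01 in Arp5 KO. For PRPS2 the 2 probes gave unlike values in Arp8 KO (-0.04 and -0.62) and like values in Arp8 OE (-0.64 and -0.66). TXNRD1, the NADPH-dependent thioredoxin reductase, was lower than wild-type on each of the other arrays, by -0.29 for Arp5 KO, -0.85 for Arp8 OE and -0.68 for Arp8 KO.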
